A study of Ovis aries with 8 samples.

Results

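Transcripts of 10 glucocorticoid-responsive genes, out of 33609 genes counted, were examined in the mediobasal hypothalamus of ewes kept on restricted food or well fed. The 10 were FKBP5, ZBTB16, ARRDC2, TSC22D3, SGK1, KLF9, CDKN1A, ERRFI1, HIF3A and the receptor gene NR3C1, each with 1 row in the count table, and all 10 had enough reads to be tested. They were selected on their difference between the groups, which set FKBP5, ZBTB16 and ARRDC2, lower in the food-restricted pools, apart from the other 7. That difference is therefore given for these genes as a description, with no p-value. The food-restricted group comprised 60 adult Ile-de-France ewes and the well-fed group, fed ad lib, another 60, with 30 per group in each of 2 years. Each group gave 4 libraries, and every library was a random equal mix of RNA from 15 ewes, so that n counts pools and the spread between pools is not that between ewes. The labels give neither the amount of food, nor the duration of restriction, nor which year's ewes entered which pool, nor a cortisol measurement.

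Cortisol, the main glucocorticoid of sheep, crosses into the brain and binds the glucocorticoid receptor encoded by NR3C1, which is held in the cytosol by HSP90 and its co-chaperones. The bound receptor moves to the nucleus and activates genes that carry its response elements. FKBP5 is one of these genes, and its product sits on the receptor complex and lowers the receptor's affinity for the hormone, a short negative feedback. In the hypothalamus glucocorticoids restrain the stress axis and act on the circuits that control feeding.

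The 8 libraries held between 36192025 and 48125991 counts. Levels are given as CPM, read counts brought to a common library size with the trimmed mean of M-values (TMM). The lowest count of any of the 10 genes in a pool was 635 and the highest was 12712. CDKN1A, whose pools differed little within a group, had between 655 and 1126 reads a pool. The part of counting error in the spread between pools was not tested gene by gene. The first principal component of log2 CPM (PC1) held 34.7% of the variance and did not separate the feeding groups. Food-restricted pools 1 and 2 and well-fed pools 3 and 4 lay above 0 on it, and food-restricted pools 3 and 4 and well-fed pools 1 and 2 lay below 0. Scores were 31.1, 46.17, -64.18 and -9.232 in food-restricted pools 1 to 4, against -32.99, -37.65, 37.33 and 29.45 in well-fed pools 1 to 4. Food-restricted pool 3 was the most extreme and food-restricted pool 4 the nearest to 0, so the cut at 0 is least sure for pool 4. Over the whole table, edgeR's quasi-likelihood test called 1 of 18193 genes (0.00550%), the feeding peptide gene AGRP, which was higher in the food-restricted pools, and 309 genes had an unadjusted p under 0.05. All 14 listed markers of the labelled tissue had enough reads to be tested, but their CPM, not corrected for gene length, differed widely. TBX3 was at 139.7 and 127.9 CPM and NKX2-1 at 48.5 and 43.6 CPM in food-restricted and well-fed pools (means, n = 4 each). NR5A1 was at 2.85 and 2.83 CPM and SLC6A3 at 2.32 and 2.52 CPM. Of the 14, 4 had an unadjusted p under 0.05 by edgeR, AGRP among them. RNA of bulk tissue cannot tell fewer cells of a type from less RNA per cell.

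**Figure D1:**
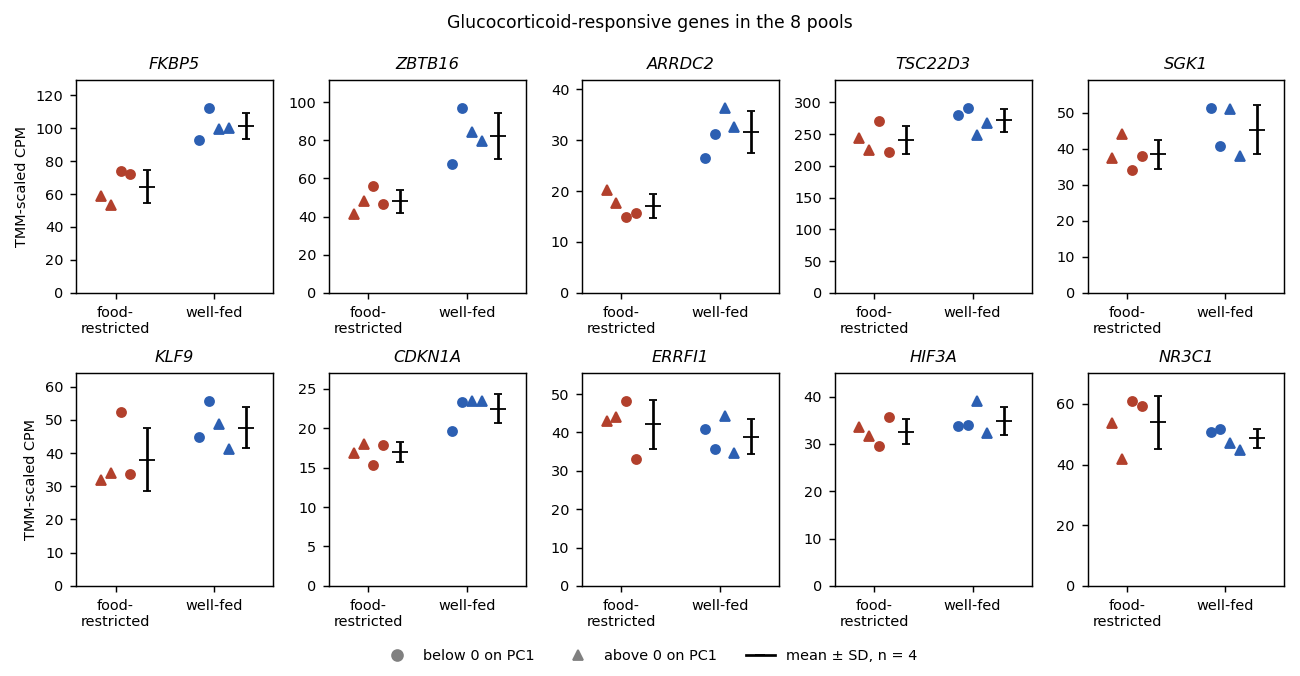
TMM-scaled CPM (vertical axes, from 0) of the 10 genes in each food-restricted (left) and well-fed (right) pool, with circles for pools below 0 and triangles for pools above 0 on PC1, and bars for mean ± SD (n = 4). FKBP5, ZBTB16, ARRDC2 and CDKN1A show no overlap between the groups, while the other 6 do.

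The receptor gene overlapped between the groups, and that of its co-chaperone did not. NR3C1 (gene ID 443412) was at 53.7, 41.9, 61.1 and 59.2 CPM in food-restricted pools 1 to 4, against 50.8, 51.9, 47.0 and 45.0 CPM in well-fed pools 1 to 4. The well-fed pools lay within the range of the food-restricted ones, and the log2 fold change (food-restricted minus well-fed) was 0.15 (SE 0.14). FKBP5 (gene ID 101118565) was at 58.6, 53.2, 73.8 and 72.2 CPM in food-restricted pools 1 to 4, against 92.8, 112.4, 99.7 and 100.2 CPM in well-fed pools 1 to 4. All 4 food-restricted pools were below the lowest well-fed pool, which stood 1.26 times above the highest food-restricted one. FKBP5 averaged 64.5 ± 10.1 CPM in food-restricted and 101.3 ± 8.14 CPM in well-fed pools (SD, n = 4 each). The fitted log2 fold change was -0.65 (SE 0.13), and the mean level was 36.4% lower in food-restricted pools.

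Among the regulators of transcription, ZBTB16 was set apart from TSC22D3, KLF9 and HIF3A. ZBTB16 (gene ID 101110790), a zinc-finger repressor, was at 41.4, 48.1, 55.9 and 46.8 CPM in food-restricted pools 1 to 4, against 67.5, 97.0, 84.2 and 79.8 CPM in well-fed pools 1 to 4. The groups did not overlap, and well-fed pool 1 was the lowest of its group, 1.21 times above the highest food-restricted pool. The means were 48.1 ± 5.98 CPM in food-restricted and 82.1 ± 12.2 CPM in well-fed pools (SD, n = 4 each). Fitted, this was a log2 fold change of -0.77 (SE 0.14) and a mean 41.5% lower in food-restricted pools.

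KLF9 (gene ID 101104718), a Krüppel-like factor that responds to glucocorticoids and to thyroid hormone, was at 31.99, 34.1, 52.2 and 33.7 CPM in food-restricted pools 1 to 4, against 44.9, 55.7, 48.8 and 41.1 CPM in well-fed pools 1 to 4. Food-restricted pool 3 stood far above the other 3 of its group and inside the well-fed range, and without that pool the groups did not overlap. That pool was picked after its value was seen, and leaving out a pool can never add overlap. In how many of all genes the loss of 1 pool ends the overlap was not counted, here or for TSC22D3 and SGK1. The log2 fold change of KLF9 was -0.33 (SE 0.17) over all pools and -0.52 without food-restricted pool 3. TSC22D3 (gene ID 101114590), whose leucine zipper protein GILZ mediates anti-inflammatory effects of glucocorticoids, was at 243.8, 225.1, 270.9 and 222 CPM in food-restricted pools 1 to 4, against 279.3, 291.4, 248.2 and 267.9 CPM in well-fed pools 1 to 4. Here too food-restricted pool 3 was the highest of its group and the one whose removal ended the overlap, and the log2 fold change was -0.18 (SE 0.10). HIF3A (gene ID 100135687), a hypoxia-inducible factor subunit, ranged from 29.5 to 35.7 CPM in food-restricted and from 32.4 to 39.1 CPM in well-fed pools, with a log2 fold change of -0.09 (SE 0.12).

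Of the effectors outside the nucleus, ARRDC2 (gene ID 101110324), an arrestin-fold adaptor in the trafficking of membrane proteins, had the largest difference of the 10 genes. It was at 20.2, 17.7, 14.8 and 15.6 CPM in food-restricted pools 1 to 4, against 26.4, 31.3, 36.4 and 32.6 CPM in well-fed pools 1 to 4. The lowest well-fed pool stood 1.31 times above the highest food-restricted pool. Means were 17.1 ± 2.39 CPM in food-restricted and 31.6 ± 4.11 CPM in well-fed pools (SD, n = 4 each). The fit gave -0.89 on the log2 scale (SE 0.15), with the mean 46.1% lower in food-restricted pools.

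SGK1 (gene ID 101107709), the serum- and glucocorticoid-regulated kinase that acts on ion channels and transporters, was at 37.4, 44.0, 34.2 and 38.0 CPM in food-restricted pools 1 to 4, against 51.4, 40.8, 51.0 and 38.1 CPM in well-fed pools 1 to 4. Well-fed pools 1 and 3 were above all others, well-fed pools 2 and 4 stood among the food-restricted ones, and the log2 fold change was -0.24 (SE 0.14). Without food-restricted pool 2 the groups just ceased to overlap, at up to 38.04 CPM in food-restricted and from 38.07 CPM in well-fed pools. ERRFI1 (gene ID 101115142), a feedback inhibitor of the epidermal growth factor receptor, ranged from 33.1 to 48.2 CPM in food-restricted and from 34.7 to 44.4 CPM in well-fed pools, with a log2 fold change of 0.11 (SE 0.14). The direction of ERRFI1 was not stable, since the log2 fold change was -0.01 without food-restricted pools 1 and 3.

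CDKN1A (gene ID 100302083), the cell cycle inhibitor p21, did not stand with the overlapping genes. It was at 16.9, 18.0, 15.3 and 17.8 CPM in food-restricted pools 1 to 4, against 19.7, 23.3, 23.5 and 23.4 CPM in well-fed pools 1 to 4. All food-restricted pools were below all well-fed pools, and well-fed pool 1 was the nearest to them, 1.09 times above the highest. The means were 17.0 ± 1.25 CPM in food-restricted and 22.5 ± 1.85 CPM in well-fed pools (SD, n = 4 each). The fit gave -0.40 on the log2 scale (SE 0.13), with the mean 24.3% lower in food-restricted pools.

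Altogether 8 of the 10 genes had a log2 fold change below 0 and 2 above it, with a median of -0.28. Over all 18193 tested genes the median was 0.01, and 47.1% had a log2 fold change below 0. The median of the 7 genes other than FKBP5, ZBTB16 and ARRDC2 was -0.18. All food-restricted pools were below all well-fed pools in 4 of the 10, a pattern met in 201 of 18193 genes (1.10%), and above them in 0 of the 10, a pattern met in 90 genes (0.495%). Because the genes were picked on this contrast, these counts, and any call of the same genes, describe the choice and support nothing further. Among the 11442 genes with a mean of at least 10 CPM, ordered from the lowest log2 fold change upwards, ARRDC2 was number 2, ZBTB16 number 3, FKBP5 number 12, CDKN1A number 67, KLF9 number 124 and SGK1 number 331. TSC22D3 was number 718 and HIF3A number 2156, and ERRFI1 and NR3C1 were in the upper part of the order, at 9045 and 9838. With feeding alone in the edgeR model none of the 10 was called. Adding the PC1 side as a block, edgeR called FKBP5, ZBTB16 and ARRDC2 among 4 lower genes of 18193 (0.0220%), and DESeq2 called ZBTB16 and ARRDC2 among 3 lower genes (0.0165%). The model with feeding alone, whose 1 call was AGRP, gave 0 calls when any 1 pool was left out, and pools were not left out under the block or in DESeq2.

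The difference between the feeding groups was also read within the pools on each side of PC1, 2 food-restricted and 2 well-fed pools a side, which is too few for a test. ARRDC2 had nearly the same difference on both sides, at 0.530-fold below 0 and 0.549-fold above 0. ZBTB16 was at 0.632-fold below 0 and 0.545-fold above 0, and FKBP5 at 0.715-fold below 0 and 0.559-fold above 0. CDKN1A was likewise similar on both sides, at 0.772-fold and 0.745-fold. SGK1 was at 0.789-fold below 0 and 0.921-fold above 0, and KLF9 at 0.838-fold and 0.738-fold. All 8 genes with a log2 fold change below 0 over the 8 pools had one below 0 on each side, and NR3C1 and ERRFI1 had one above 0 on each side. No difference between the sides was tested.

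**Figure D2:**
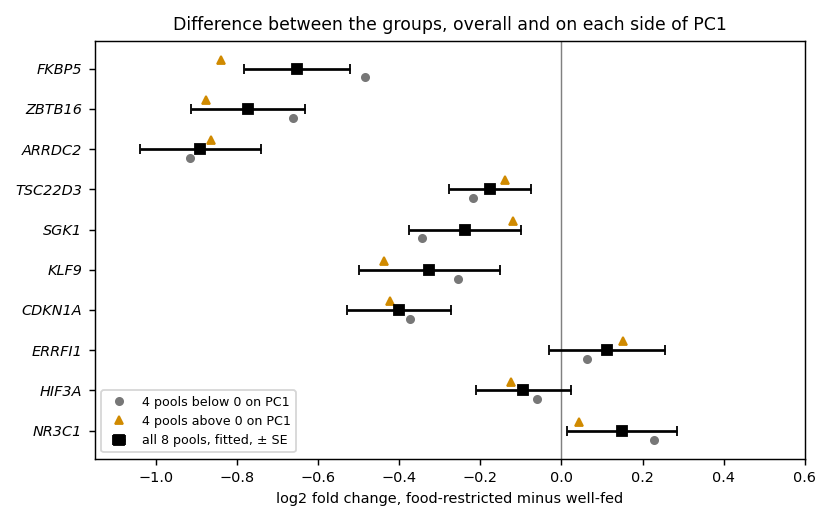
Log2 fold change, food-restricted minus well-fed (horizontal axis), of the 10 genes over all 8 pools (squares, fitted value ± SE) and within the 4 pools above 0 (triangles) and below 0 (circles) on PC1. FKBP5, ZBTB16 and ARRDC2 lie between -0.92 and -0.48 on either side, while NR3C1 and ERRFI1 lie to the right of 0.

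Ratios of reads between genes within a library do not depend on how libraries are scaled. There were 1.09, 1.27, 1.21 and 1.22 FKBP5 reads per NR3C1 read in food-restricted pools 1 to 4, against 1.83, 2.17, 2.12 and 2.23 in well-fed pools 1 to 4. The groups were far apart on this ratio of co-chaperone to receptor, at 1.20 ± 0.0753 in food-restricted and 2.09 ± 0.179 in well-fed pools (SD, n = 4 each). Against FKBP4, the related co-chaperone of the same receptor, FKBP5 gave 0.201 ± 0.0393 reads per read in food-restricted and 0.270 ± 0.0255 in well-fed pools (SD, n = 4 each), and the groups overlapped, because food-restricted pool 4 at 0.238 exceeded well-fed pool 1 at 0.234. Reads of ARRDC2 per read of its relative ARRDC3 were 0.499, 0.614, 0.298 and 0.417 in food-restricted pools 1 to 4, against 0.755, 0.974, 1.13 and 0.979 in well-fed pools 1 to 4. The groups did not overlap, and ARRDC3 itself was at 39.1 ± 8.64 CPM in food-restricted and 33.1 ± 1.33 CPM in well-fed pools (SD, n = 4 each), a mean difference opposite in sign to that of ARRDC2. ZBTB16 reads per KLF9 read were 1.29 ± 0.156 in food-restricted and 1.73 ± 0.178 in well-fed pools (SD, n = 4 each), without overlap. The ratio of the glucocorticoid to the mineralocorticoid receptor gene overlapped between the groups, with 1.47 ± 0.190 NR3C1 reads per NR3C2 read in food-restricted and 1.44 ± 0.0762 in well-fed pools (SD, n = 4 each). FKBP5 reads per ZBTB16 read, at 1.35 ± 0.184 and 1.24 ± 0.0966 in food-restricted and well-fed pools (SD, n = 4 each), also overlapped. These ratios use the contrast that chose the genes and are descriptions.

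**Figure D3:**
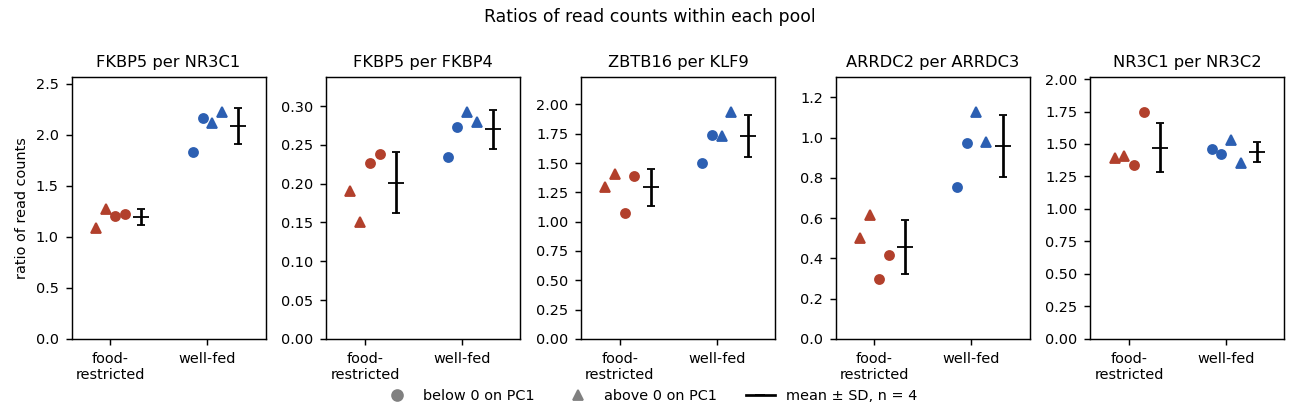
Ratio of raw read counts between pairs of genes (vertical axes, from 0) in each food-restricted (left) and well-fed (right) pool, with symbols by side of PC1 and bars for mean ± SD (n = 4). FKBP5 per NR3C1 is between 1.09 and 1.27 in food-restricted and between 1.83 and 2.23 in well-fed pools, whereas NR3C1 per NR3C2 overlaps.

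The genes were selected on the difference between the groups, read pool by pool, so their spread within a group is not free of that choice. After each group's mean was subtracted, the genes did not move as one across the 8 pools. Of the 45 pairs of genes, 22 had a Pearson r above 0, and the median r was -0.02. FKBP5 and ZBTB16 had an r of 0.631 and ZBTB16 and KLF9 one of 0.779, whereas ARRDC2 had an r of -0.393 with FKBP5 and -0.0716 with ZBTB16. FKBP5 was higher in food-restricted pools 3 and 4 than in 1 and 2, and ARRDC2 was lower in them. FKBP5 and NR3C1 shared that order and had an r of 0.816. The mean r of the 3 pairs among FKBP5, ZBTB16 and ARRDC2 was 0.0554 around the group means and 0.601 around the means of group and PC1 side, a setting with 2 pools a mean. In that setting ARRDC2 had an r of 0.817 with FKBP5 and 0.359 with ZBTB16. The r of FKBP5 was then 0.626 with ZBTB16 and 0.516 with NR3C1. Since the pools fall on 2 sides of PC1, with 4 pools in each, none of these r values was tested. The sides are a cut at 0, and food-restricted pool 4 lay near it.

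**Figure D4:**
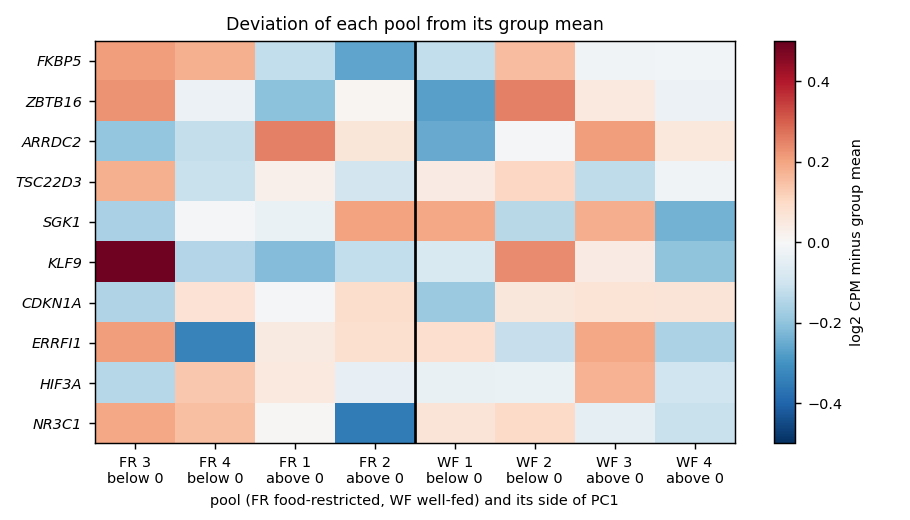
Log2 CPM minus the mean of its feeding group (colour) for the 10 genes (rows) in the 8 pools (columns, food-restricted to the left of the line, each group ordered by side of PC1). Rows do not share 1 pattern, and the darkest cell is KLF9 in food-restricted pool 3, at 0.488.

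The genes most like the mean profile of FKBP5, ZBTB16 and ARRDC2 around the group means, among 12018 named genes with at least 5 CPM, were TOB2 (r = 0.965), SLC7A6OS (0.943), SOX11 (0.903), MED21 (0.900), SUGT1 (0.891), C8H6orf203 (0.873), GID8 (0.871) and PARD6G (0.871), over 8 pools. SUGT1 is a co-chaperone of HSP90, and TOB2 belongs to a family of antiproliferative proteins that regulate mRNA decay. Over all 12018 genes likeness ran from -0.945 to 0.965 (median -0.005), so the other end reached nearly as far. The 8 are the extreme of many r values, and none was tested. The profile itself was loosely held by the 3 genes that make it up. Their likeness to it, to which each contributes, was 0.854 for ZBTB16, 0.678 for FKBP5 and 0.293 for ARRDC2. The feeding groups overlapped for all 8 of these genes, and their log2 fold changes ran from -0.14 for TOB2 (SE 0.11) to 0.32 for PARD6G (SE 0.19), at an edgeR adjusted p of 1 for each.

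Other genes that glucocorticoids are known to induce were read in the same fit. Of 43 listed, 35 were tested, and by edgeR 0 were called in either direction, 4 had an unadjusted p under 0.05, 12 had a log2 fold change above 0 and 23 below, with a median of -0.09. DESeq2 and limma voom called 0 of the 35 as well. Over all 18193 genes edgeR called 1 (0.00550%), so 0 calls in this list or the next ones tell little. Of the 18193, 309 had an unadjusted p under 0.05 by edgeR, and 47.1% had a log2 fold change below 0, to set beside the counts by sign of this list and the next ones. All food-restricted pools were below all well-fed pools in 201 (1.10%). PDK4, which restrains glucose oxidation, was at 101.9, 75.5, 120.2 and 89.8 CPM in food-restricted pools 1 to 4, against 123.0, 156.9, 114.0 and 111.2 CPM in well-fed pools 1 to 4. Food-restricted pool 3 reached into the well-fed range, and the log2 fold change was -0.38 (SE 0.16). APOLD1, an endothelial immediate early gene, was the 1 of the 35 without overlap, at 8.18 ± 1.34 CPM in food-restricted and 11.1 ± 0.779 CPM in well-fed pools (SD, n = 4 each). Its log2 fold change was -0.44 (SE 0.16). GPD1, a glycerol phosphate dehydrogenase, had a log2 fold change of -0.30 (SE 0.13), and RGS2, a regulator of G protein signalling named after its value was seen as the fourth with an unadjusted p under 0.05, one of -0.33 (SE 0.15). The groups overlapped in 3 further well-known targets. The clock gene PER1 was at 180.2 ± 41.0 CPM in food-restricted and 171.5 ± 24.1 CPM in well-fed pools, the phosphatase gene DUSP1 at 40.5 ± 7.78 and 37.4 ± 3.70 CPM, and TXNIP, an arrestin-fold inhibitor of glucose uptake, at 442.0 ± 57.3 and 431.7 ± 61.9 CPM (SD, n = 4 each). Each of these named genes had an edgeR adjusted p of 1.

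The receptor's chaperone complex, its coregulators and the enzymes of steroid metabolism gave 0 calls among 25 tested genes by edgeR, DESeq2 or limma voom, with 4 at an unadjusted p under 0.05, 19 below and 6 above 0 in log2 fold change, and a median of -0.09. Those 4 were the HSP70 partners DNAJB1 (-0.30, SE 0.10) and DNAJA1 (-0.22, SE 0.09), the adaptor STIP1 (-0.24, SE 0.11) and FKBP4 (-0.22, SE 0.10). DNAJB1 averaged 111.8 ± 6.50 CPM in food-restricted and 138.2 ± 9.97 CPM in well-fed pools (SD, n = 4 each), and its groups did not overlap, nor did those of DNAJA1. Among the 25 genes, 2 thus had all food-restricted pools below all well-fed pools, beside 201 of all 18193 (1.10%). An unadjusted edgeR p under 0.05 was met in 4 of the 25, beside 309 of all 18193. NR3C2, the mineralocorticoid receptor, was at 36.9 ± 6.85 CPM in food-restricted and 33.9 ± 2.47 CPM in well-fed pools (SD, n = 4 each). HSD11B1, the enzyme that regenerates active cortisol within cells, was at 41.1, 44.4, 47.0 and 45.8 CPM in food-restricted pools 1 to 4, against 39.7, 46.9, 43.8 and 48.8 CPM in well-fed pools 1 to 4. Its groups overlapped, and its log2 fold change was -0.01 (SE 0.11). HSD11B2, which inactivates cortisol, had 75 counts over the 8 pools and was not tested.

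Genes that glucocorticoids repress, and those of the stress axis, gave 0 calls among 11 tested in each list by edgeR, DESeq2 or limma voom. The repressed genes had 5 log2 fold changes above and 6 below 0 (median -0.11, 0 at an unadjusted p under 0.05). CRH, AVP and POMC stood in both lists. CRH, the hypothalamic releasing hormone of the axis, was at 5.69, 5.60, 3.08 and 2.11 CPM in food-restricted pools 1 to 4, against 2.53, 3.04, 6.84 and 5.35 CPM in well-fed pools 1 to 4. Its levels parted the pools by their side of PC1 and not by feeding, so that both groups held high and low pools. AVP was at 117.6 ± 87.6 CPM in food-restricted and 104.6 ± 91.7 CPM in well-fed pools, and POMC at 168.7 ± 98.1 and 181.7 ± 146.4 CPM (SD, n = 4 each), spreads too wide to show a moderate difference. Both genes were likewise higher in every pool above 0 on PC1 than in every pool below 0. Log2 fold changes within the sides were 0.82 below 0 and -0.04 above 0 for AVP, and 0.43 and -0.25 for POMC. In the repressed list ICAM1 (-0.21, SE 0.15), IL1B (-0.24, SE 0.18) and MMP9 (0.81, SE 0.53, near 1 CPM) had the smallest p. The stress axis had 4 log2 fold changes above and 7 below 0 (median -0.11), with 1 at an unadjusted p under 0.05. That was PCSK1, the prohormone convertase that cleaves POMC, at 284.8, 286.5, 344.4 and 286.3 CPM in food-restricted pools 1 to 4, against 395.2, 359.2, 373.4 and 329.9 CPM in well-fed pools 1 to 4. Food-restricted pool 3 was the 1 pool of its group inside the well-fed range, and the log2 fold change was -0.28 (SE 0.10). The next smallest p in that list were those of the CRH receptor gene CRHR1 (-0.25, SE 0.21) and of CRHBP (-0.20, SE 0.18), whose product binds CRH.

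Family relatives of the 10 genes gave 0 calls among 36 tested by edgeR, DESeq2 or limma voom, with 2 at an unadjusted p under 0.05, and 25 had a log2 fold change above 0 and 11 below (median 0.04). The 2 were FKBP4 and KLF10, a Krüppel-like factor induced by transforming growth factor beta, at 26.9 ± 3.37 CPM in food-restricted and 21.5 ± 3.01 CPM in well-fed pools (SD, n = 4 each). KLF10 had a log2 fold change of 0.33 (SE 0.15). No relative had groups without overlap. The other ARRDC genes, of which all but ARRDC3 are named after their values were seen, had log2 fold changes of 0.24 for ARRDC3 (SE 0.16), 0.20 for ARRDC1 (SE 0.38), 0.15 for ARRDC4 (SE 0.14) and 0.13 for ARRDC5 (SE 0.41).

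**Figure D5:**
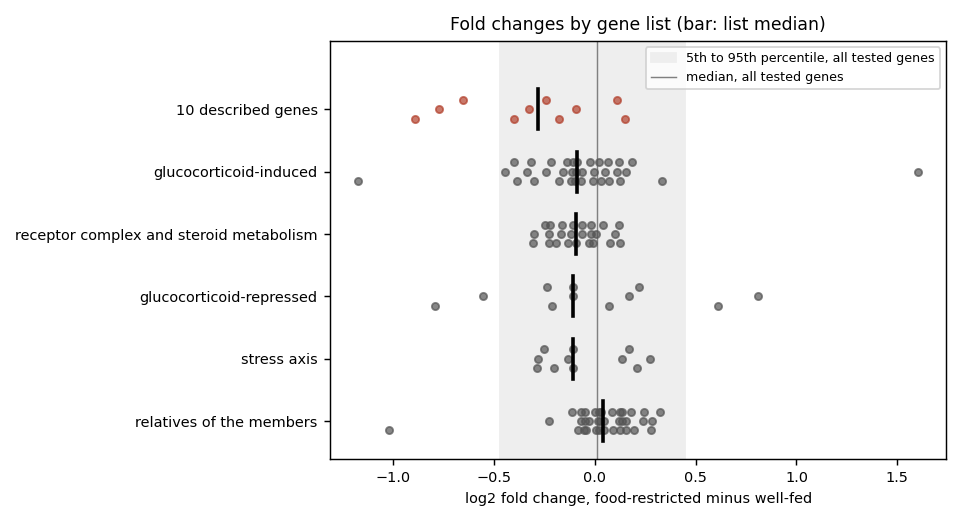
Log2 fold change, food-restricted minus well-fed (horizontal axis), of the 10 described genes (red) and of each list of related genes (grey points), with black bars at list medians and a shaded band from the 5th to the 95th percentile of all tested genes (-0.47 to 0.45). FKBP5, ZBTB16 and ARRDC2 lie outside the band, and the medians of the 5 other lists lie between -0.11 and 0.04.

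Marker genes of the cell types in the block were compared in the same fit. Summed levels overlapped between food-restricted and well-fed pools for neurons (2083 to 2633 against 2074 to 2377 CPM over 9 markers), mature oligodendrocytes (4171 to 5683 against 4043 to 5659 CPM over 10), astrocytes (10240 to 11670 against 10590 to 11680 CPM over 8), endothelium (220.4 to 253.5 against 220.8 to 248.3 CPM over 8) and microglia and macrophages (382.7 to 412.6 against 357.6 to 441.2 CPM over 7). Pericyte, smooth muscle and meningeal markers overlapped as well, at 636.6 to 701.1 against 665.4 to 696.7 CPM over 9. Ranges also overlapped for oligodendrocyte progenitors, tanycytes and ependyma, choroid plexus and pituitary. Among the tested markers of these lists, DIO2, MRC1 and COL3A1 had an unadjusted p under 0.05 in edgeR, each with an adjusted p of 1. DIO2, a tanycyte marker whose product activates thyroid hormone, was at 57.0, 53.4, 82.6 and 55.2 CPM in food-restricted pools 1 to 4, against 101.4, 111.3, 76.2 and 85.6 CPM in well-fed pools 1 to 4. Food-restricted pool 3 stood inside the well-fed range, and the log2 fold change of DIO2 was -0.59 (SE 0.17). The tanycyte and ependymal list did not follow DIO2, with 6 of its 8 log2 fold changes above 0 and 2 below (median 0.06). Microglia and macrophage markers had 3 above and 4 below (median -0.03), and pericyte, smooth muscle and meningeal markers 4 above and 5 below (median -0.01). MRC1, found on perivascular macrophages, was at 1.29, 1.32, 1.68 and 1.49 CPM in food-restricted pools 1 to 4, against 2.83, 2.29, 2.54 and 3.07 CPM in well-fed pools 1 to 4. It was lower in all food-restricted pools, and among the pericyte, smooth muscle and meningeal markers COL3A1 likewise did not overlap, at 33.0 and 43.7 CPM (means of food-restricted and well-fed pools, n = 4 each). Of 5 red blood cell markers 1 was tested, the beta globin HBB, at 0.796, 0.455, 0 and 0.735 CPM in food-restricted pools 1 to 4, against 1.76, 0.910, 3.73 and 1.61 CPM in well-fed pools 1 to 4. HBB was lower in all food-restricted pools, at an edgeR adjusted p of 1, while ALAS2 and SLC4A1 had 0 counts in all 8 pools. The part of blood, macrophage or tanycyte RNA in the lower levels of FKBP5, ZBTB16, ARRDC2 and CDKN1A was not tested.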

How the data were processed

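Gene-level RNA sequencing counts of 8 pools were used, 4 food-restricted and 4 well-fed. Per the file headers, the deposited table gives whole read counts, 1 column per pool, keyed by NCBI gene ID and symbol, and columns were matched to samples by group and replicate number. Per the labels, RNA was extracted with TriReagent and libraries were made with a stranded TruSeq mRNA kit. Aligners named in the submitters' processing notes are TopHat2 2.1.1 and Bowtie2 2.3.5.1, beside featureCounts 2.0.0, SAMtools 1.9, bcl2fastq 2.20 and FastQC. Build, annotation, strand setting and handling of shared reads were not given in the sources used here, so overlapping or near-identical genes are uncertain and no coordinates are printed. Gene IDs were found in a RefSeq table of ARS-UI_Ramb_v3.0 for 83.6% of rows, used for names only. Gene lengths and sequences were not used here, so CPM does not rank the levels of different genes, and promoter motifs were not searched.

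Counts were filtered with filterByExpr (minimum count 10, minimum total 15), scaled by TMM and tested with edgeR 4.0.16 (quasi-likelihood, no covariate, Benjamini-Hochberg over 18193 genes, threshold 0.05) in R 4.3.3. The procedure was tested on simulated counts drawn independently for each pool. These held no component such as PC1, so that test does not cover such a component. SE is the absolute log2 fold change over the square root of F. Log2 CPM for PC1 and deviations had a prior count of 2. DESeq2 1.42.0 and limma 3.58.1 (voom) were among the alternatives, with other scalings and filters, blocks and pools left out. Figures were drawn with Python 3.11.15. The 10 genes, the lists and the tests were chosen with earlier results of these data known. From each of the 5 lists of related genes the 3 genes with the smallest p are named, as are NR3C2, HSD11B1, FKBP4, PER1, DUSP1, PDK4, TXNIP, CRH, AVP and POMC whatever their result, and the 8 genes most like the profile described. Counts of pools within a group were further apart than sampling alone gives (chi-square over degrees of freedom 25.1 to 169). The labels call the pools replicates without saying whether a ewe entered more than 1, so p-values measure only the spread between these mixes.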

Additional observations from a re-analysis of the deposited data

Results flagged for a closer look

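Among 82 groups of 4 pools checked, for 41 named genes, 3 held a pool far from the other 3, where chance gives about 1 in 20 groups. KLF9 was at 52.2 CPM in food-restricted pool 3 and between 31.99 and 34.1 CPM in the other food-restricted pools. PCSK1 was at 344.4 CPM in the same pool and between 284.8 and 286.5 CPM in the others. CDKN1A was at 19.7 CPM in well-fed pool 1 and between 23.3 and 23.5 CPM in the other well-fed pools.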

How the results depend on the processing

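Over the whole table, edgeR called 1 gene, and so did 6 alternatives (size factors of the DESeq2 kind, upper-quartile scaling, library totals, no low-count filter, at least 1 CPM in 4 pools, limma voom). The count was 6 with the side of PC1 as a block, 4 in DESeq2, 0 without food-restricted pools 1 and 3, and 0 (lowest and highest) when each pool was left out in turn. The fit with the replicate number as a block called 0 genes, and same-numbered pools deviated in opposite directions (correlations between -0.42 and -0.207). Because same-numbered pools also lay on opposite sides of PC1, these correlations cannot decide whether the numbers pair the pools. Such a pairing was not tested in another way. No gene of the 5 related lists was called under any of the 18 alternatives. In those alternatives the log2 fold change stayed between -0.72 and -0.55 for FKBP5, -0.86 and -0.68 for ZBTB16, -0.98 and -0.80 for ARRDC2, and -0.46 and -0.32 for CDKN1A, and of the 10 genes only ERRFI1 changed sign (-0.0109 without food-restricted pools 1 and 3). Across the 3 other scalings no value of the 10 moved by more than 0.02, and the medians of the 5 lists kept their signs. The mean r among FKBP5, ZBTB16 and ARRDC2 was 0.0554 around the group means, 0.601 around the means of group and side, and between -0.32 and 0.248 with 1 pool left out; the cause was not tested. Whether groups overlap without each pool was added after seeing the data. With 4 pools a group, small differences in the 6 overlapping genes could not be detected.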

Other observations

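The 100 named genes most like the mean profile of FKBP5, ZBTB16 and ARRDC2 around the group means had likeness between 0.715 and 0.965. Of these, 37.0% had a log2 fold change below 0 between food-restricted and well-fed pools, with a median of 0.03, beside 46.1% and a median of 0.01 among all 12018 candidates. In 1 of the 100 all food-restricted pools were below all well-fed pools, as in 113 of the 12018.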
